A study of Homo sapiens with 15 samples.

Results

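The lysyl oxidase family was followed through RNA-seq libraries of A673 cells, an established Ewing sarcoma line that carries the EWS/FLI fusion. Its 5 members, LOX, LOXL1, LOXL2, LOXL3 and LOXL4, were chosen by name, with earlier results of these data known. They were matched to the deposited table by Ensembl identifier, which gave 5 of the 57820 genes in the table. All 5 passed the filter of an average of at least 1 count per library, as did 28793 genes in all. Transcripts were measured in 5 conditions with 3 libraries each.

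All cells received a retroviral shRNA on day 1 and an expression vector on day 5, were kept under both 2 µg/mL puromycin and 400 µg/mL hygromycin B from day 6, and were collected on day 16. iLuc cells carried an shRNA against luciferase with an empty vector and so kept their endogenous EWS/FLI. iEF cells carried an shRNA against the 3′ UTR of the fusion transcript with an empty vector. The other cells carried that same shRNA with a 3X-FLAG-tagged cDNA that it does not target. This was wildtype EWS/FLI (WT-EF), Δ22, which lacks all but a few residues of the EWS domain, or DAF, in which tyrosines of the N-terminal EWS domain were changed to alanine. All libraries came from the same line, and the replicates were not described as separate cultures in the labels, so p-values measure the spread between libraries, which may be technical.

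Lysyl oxidases are secreted, copper-dependent amine oxidases. They oxidise lysine and hydroxylysine side chains in collagen and elastin to aldehydes, which then condense into the cross-links that make the fibres insoluble. LOX and LOXL1 are made as proenzymes with a propeptide, which in LOX is removed by BMP1 and related proteases. LOXL2, LOXL3 and LOXL4 carry scavenger receptor cysteine-rich domains in front of the catalytic domain instead. EWS/FLI joins the N-terminal part of EWS to the DNA-binding domain of FLI, a member of the ETS family, whose sites have GGAA at their core, and it is known both to activate and to repress genes.

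The genes lie apart in the genome, at these positions of GRCh37, the build also called hg19. LOX (ENSG00000113083) is at chr5:121398890-121414108 on the minus strand and LOXL1 (ENSG00000129038) at chr15:74218330-74244478 on the plus strand. LOXL3 (ENSG00000115318) is at chr2:74759385-74782817 and LOXL4 (ENSG00000138131) at chr10:100007447-100027951, both on the minus strand. Upstream windows of LOX and LOXL4, the members with the largest difference between iLuc and iEF and with the largest mean level in Δ22 relative to iEF, are shown for the ETS core sequence. Each holds the 250 bases before a RefSeq transcription start, as listed for GRCh38, and was found once, letter for letter, on its chromosome in GRCh37. Capitals mark GGAA on either strand, so that TTCC is GGAA on the other strand. The LOX window is chr5:121413955-121414204, minus strand, and reaches over the outermost annotated start of the gene. The LOXL4 window is chr10:100027952-100028201, minus strand, and ends where the annotated gene begins.
LOX upstream: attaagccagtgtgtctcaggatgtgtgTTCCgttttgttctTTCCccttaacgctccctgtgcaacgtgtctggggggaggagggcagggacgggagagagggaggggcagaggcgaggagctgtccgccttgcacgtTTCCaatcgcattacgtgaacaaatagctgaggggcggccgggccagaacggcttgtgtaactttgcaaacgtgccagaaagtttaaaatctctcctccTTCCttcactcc
LOXL4 upstream: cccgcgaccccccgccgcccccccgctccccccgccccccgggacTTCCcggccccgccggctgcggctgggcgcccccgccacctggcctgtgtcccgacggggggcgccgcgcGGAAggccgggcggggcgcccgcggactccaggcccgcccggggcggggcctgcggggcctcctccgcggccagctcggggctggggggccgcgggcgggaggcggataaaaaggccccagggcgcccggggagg

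The LOX window holds 4 GGAA matches and the LOXL4 window holds 2. The LOXL1 window, chr15:74218553-74218802, holds 3 and the LOXL3 window, chr2:74781070-74781319, holds 5. Both of these lie within the annotated gene. No LOXL2 window was examined on its own. GGAA was present in 92.7% of 35116 RefSeq windows of the same length, with a median of 3 matches, so its presence here is the common state. The tandem GGAAGGAA and the longer CCGGAAGT, which both contain GGAA, were searched on both strands and were found in none of the 4 windows, against 3.06% and 3.42% of all windows. These counts describe letters in the windows only.

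Library totals ran from 28659475 to 41859880 counts with a median of 32943231. FLI1, whose counts include the part of the fusion transcript it shares with FLI1, stood at 48.0, 47.8 and 52.4 CPM (counts scaled to the TMM-normalized library size) in iLuc and at 12.9, 15.5 and 15.3 in iEF, which is 3.41-fold lower (edgeR adjusted p = 7.93e-09). With the cDNAs it read 16.0 to 18.7 CPM in WT-EF, 24.4 to 36.2 in Δ22 and 22.1 to 27.3 in DAF. Of the Ewing sarcoma markers, NR0B1 and STEAP1 averaged 55.0 and 181.8 CPM in iLuc, while CD99 did not pass the filter on low counts. Of 4 markers of blood, endothelial and epithelial cells found in the table, PTPRC, VWF and EPCAM stayed at or under 1.01 CPM in every library. KRT18 was present in all, so that the summed marker level averaged 33.7 CPM in iLuc, 60.4 in iEF, 43.1 in WT-EF, 71.8 in Δ22 and 79.6 in DAF. Its part in the results below was not tested. In bulk RNA, fewer cells expressing a gene and less of its RNA in each cell cannot be told apart.

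The 5 genes shared a direction between cells that kept EWS/FLI and cells in which it was depleted. All 5 were lower in iLuc than in iEF, by 5.03-fold for LOXL3 to 107-fold for LOX, and no iLuc library overlapped an iEF library for any member. How many of all genes were free of overlap in this way was not counted. The median log2 fold change was -4.48 over the members and 0.04 over all genes tested. Of all genes, 22.1% were called lower and 19.5% higher in this comparison at an adjusted p of 0.05.

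LOX, the founding member, which acts on both collagen and elastin, read 4.31, 2.89 and 3.19 CPM in the 3 iLuc libraries. In the iEF libraries it read 405.2, 265.7 and 422.5 CPM. The log2 fold change of iLuc against iEF was -6.74 with a standard error of 0.42 (edgeR adjusted p = 1.58e-08). LOX thus had the largest difference of the family, and replicate 2 of iEF was the lowest of its group.

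LOXL2, which acts on collagens including the type IV collagen of basement membranes, showed the next largest difference. The gene (ENSG00000134013) is at chr8:23154410-23282841 on the minus strand. Its iLuc libraries held 3.61, 3.09 and 2.63 CPM and its iEF libraries 150.3, 157.7 and 172.4 CPM. The log2 fold change was -5.68 with a standard error of 0.32 (edgeR adjusted p = 6.94e-09), a 51.3-fold lower level in iLuc. The 3 iEF libraries of LOXL2 lay close together.

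LOXL4 was the scarcest member in iLuc, with 10, 13 and 6 counts, or 0.306, 0.365 and 0.179 CPM. In iEF it read 5.94, 7.52 and 5.73 CPM, which gave a log2 fold change of -4.48 with a standard error of 0.48 (edgeR adjusted p = 2.79e-06). Counts this low limit how precisely the 22.3-fold difference is known, and its 95% confidence interval ran from -5.51 to -3.45 on the log2 scale.

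LOXL1, an enzyme tied to elastic fibre assembly, had the highest CPM of the family in iLuc. It read 29.7, 19.4 and 22.7 CPM in iLuc and 110.5, 122.3 and 147.4 CPM in iEF, a log2 fold change of -2.41 with a standard error of 0.17 (edgeR adjusted p = 6.28e-08). LOXL3 read 1.77, 1.35 and 1.43 CPM in iLuc and 7.23, 9.68 and 6.25 CPM in iEF, a log2 fold change of -2.33 with a standard error of 0.25 (edgeR adjusted p = 2.89e-06). LOXL1 and LOXL3 thus had log2 differences of similar size at levels far apart.

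**Figure D1:**
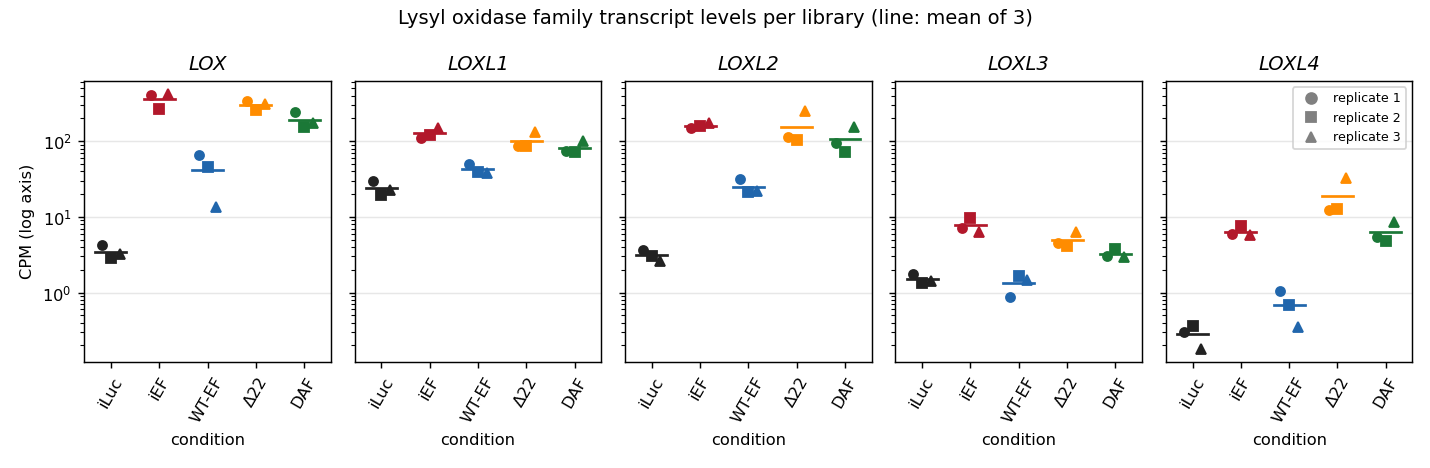
CPM of the 5 lysyl oxidase genes in each library, on a log axis, by condition, with replicate number as symbol and the mean of 3 libraries as a line. All iLuc points lie under all iEF points for every gene, WT-EF points lie under those of iEF and DAF, and replicate 3 of Δ22 is the highest Δ22 library for LOXL1 to LOXL4.

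WT-EF cells held less of every member than iEF cells, while LOX, LOXL1 and LOXL2 stayed above their level in iLuc. All 5 members were called lower in WT-EF than in iEF, against 17% of all genes called lower and 12.9% called higher. The median log2 fold change was -2.68 over the members and -0.01 over all genes. This comparison and those of Δ22 and DAF below use the same 3 iEF libraries as iLuc does, so their directions are not independent of each other.

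LOX read 66.0, 45.5 and 13.3 CPM in WT-EF. The log2 fold change against iEF was -3.22 with a standard error of 0.35 (edgeR adjusted p = 7.33e-06), and replicate 3 stood well below the other 2 libraries. Without that library the log2 fold change was -2.67 (edgeR adjusted p = 3.02e-09). LOXL2 read 31.9, 21.1 and 21.6 CPM, with a log2 fold change of -2.68 and a standard error of 0.27 (edgeR adjusted p = 3.95e-06). For both genes every WT-EF library lay between the iLuc and the iEF libraries, a pattern that was not counted over all genes.

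LOXL1 read 49.5, 39.7 and 38.3 CPM in WT-EF and fell by 1.57 on the log2 scale against iEF, with a standard error of 0.17 (edgeR adjusted p = 6.87e-06). LOXL3 read 0.886, 1.64 and 1.46 CPM and fell by 2.54 with a standard error of 0.25 (edgeR adjusted p = 3.43e-06). LOXL4 read 1.05, 0.687 and 0.346 CPM and fell by 3.19 with a standard error of 0.42 (edgeR adjusted p = 4.37e-05). Replicate 3 was the lowest WT-EF library for LOX, LOXL1 and LOXL4, but not for LOXL2 or LOXL3, and the log2 fold change of LOXL4 without it was -2.69.

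The remaining gap to iLuc was tested directly. LOX was 11.5-fold, LOXL2 8.0-fold and LOXL1 1.79-fold higher in WT-EF than in iLuc, with edgeR adjusted p of 2.62e-05, 1.40e-05 and 0.00279. Thus 3 of 5 members were called higher, against 10.7% of all genes called higher and 9.03% called lower. LOXL3 did not pass the test, with a log2 fold change of -0.21 and a 95% confidence interval from -0.77 to 0.36. LOXL4 did not pass it either, at 1.29 with an interval from 0.09 to 2.49 (edgeR adjusted p = 0.129), but 4 of 25 alternative settings called it higher, among them the DESeq2 test (adjusted p = 0.0274) and the fit without WT-EF replicate 3 (edgeR adjusted p = 0.0150). The call for LOXL1 was lost only when replicate 2 was left out of all conditions (edgeR adjusted p = 0.0990), among the 25 alternative settings tried.

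**Figure D2:**
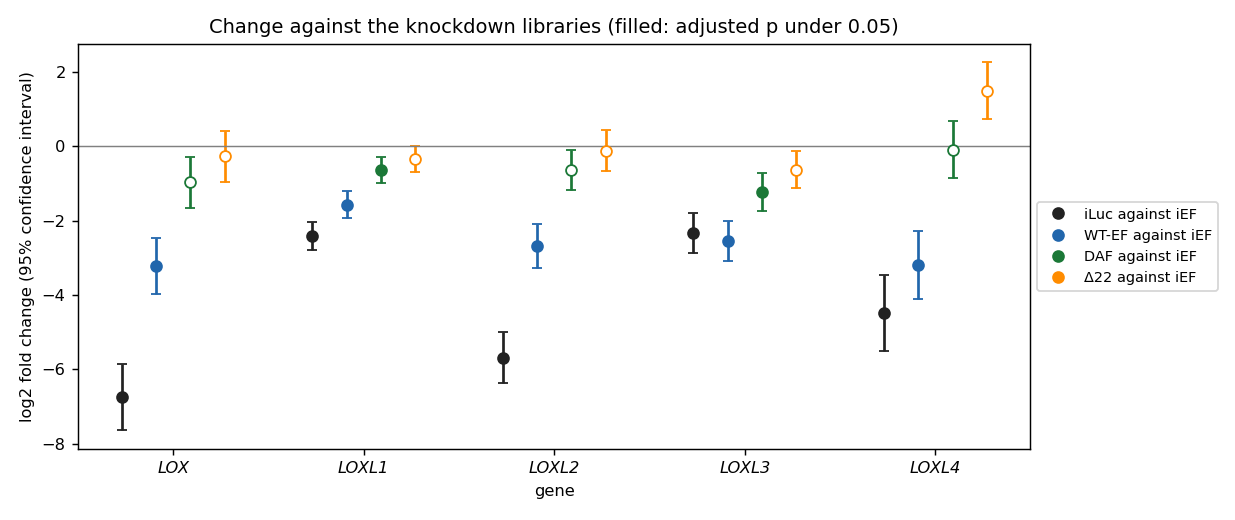
Log2 fold change against iEF of each member in iLuc, WT-EF, DAF and Δ22, with 95% confidence intervals from the fit to all 15 libraries and filled points for an adjusted p under 0.05. All 5 points are filled for iLuc and WT-EF, 2 for DAF and none for Δ22, whose LOXL4 point is the highest at 1.5.

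Δ22, which keeps the DNA-binding part of the fusion without most of the EWS domain, left the family near its iEF level or, for LOXL4, above it. None of the 5 members was called by edgeR at an adjusted p of 0.05, against 0.83% of all genes called lower and 0.472% called higher. LOXL3 and LOXL4 had an unadjusted p under 0.05, as did 3918 of 28793 genes tested. DESeq2 called 1 of the 5, LOXL4, and 1078 of 16512 genes in all. LOX read 343.9, 256.1 and 310.8 CPM, within the range of the iEF libraries but for replicate 2, and its log2 fold change was -0.27 with a 95% confidence interval from -0.94 to 0.41. LOXL1 read 86.8, 86.0 and 130.6 CPM and LOXL2 read 113.6, 104.8 and 250.3 CPM, so that replicate 3 was above the other 2 libraries for both. LOXL3 read 4.48, 4.15 and 6.32 CPM, with a log2 fold change of -0.62 and an interval from -1.12 to -0.13.

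LOXL4 departed from the other members in Δ22. It read 12.3, 12.8 and 32.3 CPM, so that all 3 Δ22 libraries lay above all iEF libraries, whose highest value was 7.52 CPM. How many of all genes were separated in this way was not counted. The log2 fold change against iEF was 1.5 with a standard error of 0.36 and a 95% confidence interval from 0.73 to 2.26, a 2.82-fold higher mean that narrowly missed the cutoff (edgeR adjusted p = 0.0563, unadjusted p = 0.000858). Over 25 alternative settings the log2 fold change stayed positive, between 0.92 and 1.88, and 8 of them called it. It was 0.94 (edgeR adjusted p = 0.304) without Δ22 replicate 3, the highest library. The call was made without WT-EF replicate 1 (edgeR adjusted p = 0.0297), without WT-EF replicate 3 (edgeR adjusted p = 0.0101), without Δ22 replicate 1 (edgeR adjusted p = 0.0363) and without replicate 3 of all conditions (edgeR adjusted p = 0.0184).

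DAF, the tyrosine mutant, gave levels between those of WT-EF and iEF for LOX, LOXL1 and LOXL3. It was called lower than iEF for 2 of 5 members, LOXL1 and LOXL3, against 6.19% of all genes called lower and 5% called higher. The median log2 fold change was -0.64 over the members and 0.00 over all genes. LOXL3 read 3.06, 3.77 and 2.98 CPM, all under the lowest iEF library, and fell by 1.23 on the log2 scale with a standard error of 0.24 (edgeR adjusted p = 0.00377). LOXL1 read 75.0, 71.6 and 99.1 CPM, again all under the lowest iEF library, and fell by 0.64 with a standard error of 0.17 (edgeR adjusted p = 0.0217). How many of all genes had every DAF library under every iEF library was not counted.

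The call for LOXL1 was lost in 6 of 25 alternative settings. Without the replicate block its adjusted p was 0.0532. It was also lost without iEF replicate 2 (edgeR adjusted p = 0.0895), without iEF replicate 3 (edgeR adjusted p = 0.0932), without DAF replicate 1 (edgeR adjusted p = 0.111) and without DAF replicate 2 (edgeR adjusted p = 0.0892). When replicate 2 was left out of all conditions, LOXL1 (edgeR adjusted p = 0.260) and LOXL3 (edgeR adjusted p = 0.0554) both lost the call.

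LOX read 244.3, 153.2 and 173.4 CPM in DAF, under all 3 iEF libraries, a separation that was not counted over all genes. Yet its log2 fold change of -0.97 with a standard error of 0.32 did not pass the test over all genes (edgeR adjusted p = 0.0679). LOX was called in 4 of 25 alternative settings. Without WT-EF replicate 3, which shares in the estimate of the spread, LOX was called lower in DAF than in iEF at a similar log2 fold change of -0.92 (edgeR adjusted p = 2.55e-05). LOXL2 read 94.5, 72.4 and 155.6 CPM, with a log2 fold change of -0.64 and a 95% confidence interval from -1.18 to -0.09 (edgeR adjusted p = 0.136). It was called in 3 of 25 alternative settings, without a count filter (edgeR adjusted p = 0.000215), with the 6 libraries compared (edgeR adjusted p = 0.0165) and without replicate 3 of all conditions (edgeR adjusted p = 0.000277). LOXL4 read 5.41, 4.83 and 8.45 CPM, overlapping the iEF libraries, with a log2 fold change of -0.08 and an interval from -0.84 to 0.68. In DAF, as in Δ22, replicate 3 was the highest library for LOXL1, LOXL2 and LOXL4.

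The tests between constructs put the mutant and the wildtype apart for the whole family. All 5 members were lower in WT-EF than in DAF, against 16.1% of all genes called lower and 12.4% called higher. LOXL4 was 8.61-fold lower (edgeR adjusted p = 8.13e-05), LOX 4.75-fold lower (edgeR adjusted p = 0.000168) and LOXL2 4.12-fold lower (edgeR adjusted p = 5.86e-05). LOXL3 was 2.47-fold lower (edgeR adjusted p = 0.00131) and LOXL1 1.90-fold lower (edgeR adjusted p = 0.000727). No WT-EF library overlapped a DAF library for any member, though the share of all genes without such overlap was not counted. All 25 alternative settings called all 5.

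Between DAF and Δ22 the log2 fold changes of the 5 members were all negative, from -1.58 to -0.30, with an all-gene median of -0.02. Only LOXL4 was called, against 0.379% of all genes called lower and 0.948% called higher. Its DAF libraries, up to 8.45 CPM, lay under its Δ22 libraries, from 12.3 CPM, with a log2 fold change of -1.58 and a standard error of 0.35 (edgeR adjusted p = 0.0426). Such separation was not counted over all genes. The call for LOXL4 was lost in 12 of 25 alternative settings. It did not hold without the replicate block (edgeR adjusted p = 0.0653), nor without any 1 of DAF replicates 1, 2 or 3, Δ22 replicates 1 or 3, iLuc replicate 1, iEF replicate 1 or WT-EF replicate 2. The log2 fold change was smallest, -0.95 (edgeR adjusted p = 0.350), without Δ22 replicate 3. With only the 6 libraries compared in the fit, edgeR called all 5 members lower in DAF, among 2744 of 28743 genes called, 48.6% of them lower. For LOX the 95% confidence interval of the difference ran from -1.38 to -0.02, for LOXL1 from -0.65 to 0.05, for LOXL2 from -1.07 to 0.02 and for LOXL3 from -1.12 to -0.10.

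How far each construct moved a gene was also expressed as a share of the distance between iEF and iLuc, on log2 CPM and within each set of libraries with the same replicate number. A share of 0 means the iEF level and 100 the iLuc level. These shares are descriptions without a test, and they share the iEF and iLuc libraries. WT-EF covered 50.1% ± 18.1 (SD, n = 3) of the distance for LOX, 64.7% ± 6.27 for LOXL1 and 47.6% ± 5.19 for LOXL2. For LOXL3 it covered 112% ± 31.2 and for LOXL4 74.6% ± 12.6.

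DAF covered 53.4% ± 7.10 for LOXL3 and 26.6% ± 4.68 for LOXL1, but 13.9% ± 3.85 for LOX, 11.6% ± 8.73 for LOXL2 and 2.14% ± 13.7 for LOXL4 (SD, n = 3). Δ22 covered 25.6% ± 23.3 for LOXL3 and 14.7% ± 7.10 for LOXL1, with 3.58% ± 2.74 for LOX, 3.00% ± 10.5 for LOXL2 and -32.7% ± 18.8 for LOXL4. On this scale LOXL3 and LOXL1 had the largest mean shares in DAF and in Δ22. The scale matters for the size and the order of these shares. On linear CPM, WT-EF covered between 81.1% for LOXL1 and 104% for LOXL3, and DAF covered 71.7% for LOXL3, 47.4% for LOX, 43.98% for LOXL1, 34.4% for LOXL2 and -0.683% for LOXL4, so that LOX was no longer below LOXL1.

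**Figure D3:**
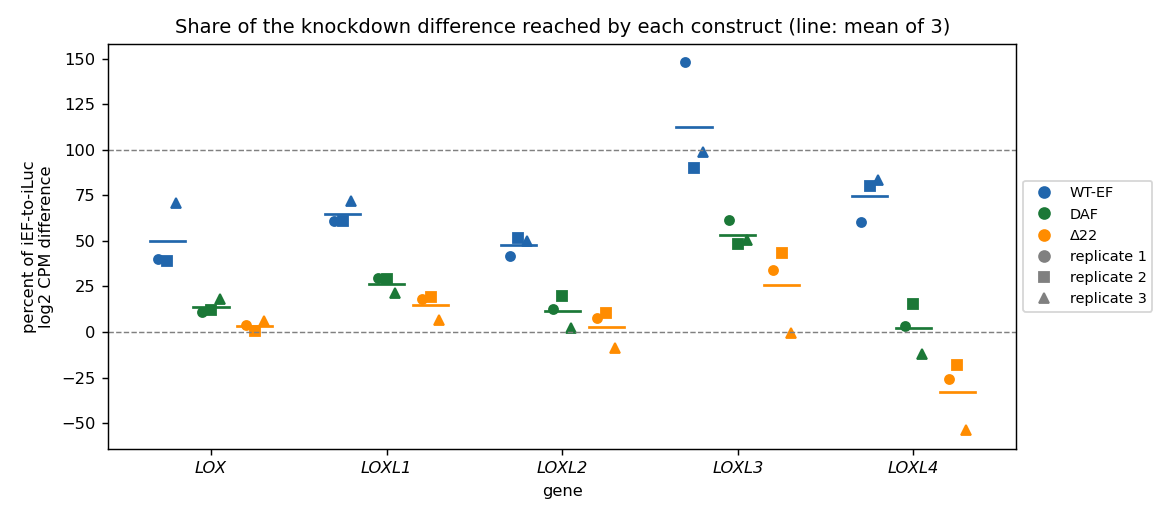
Share of the log2 CPM difference from iEF (0) to iLuc (100) reached by WT-EF, DAF and Δ22 for each gene, in each set of libraries with the same replicate number, with the mean of 3 as a line. WT-EF points lie above DAF and Δ22 points for every gene, and all Δ22 points of LOXL4 lie below 0.

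Levels were compared between genes as CPM per kilobase of the longest annotated transcript of each gene. In iLuc the family summed to 10.6 ± 2.19 CPM per kb (SD, n = 3), and LOXL1 alone made up 80.9% of it. The order was LOXL1 at 8.58, LOXL2 at 0.835, LOX at 0.683, LOXL3 at 0.411 and LOXL4 at 0.0787 CPM per kb, with LOXL2 and LOX overlapping between libraries. In iEF the sum was 164 ± 21.2 CPM per kb, led by LOX at 71.8, LOXL1 at 45.5 and LOXL2 at 43.0, each overlapping the next. LOXL3 at 2.09 and LOXL4 at 1.78 CPM per kb overlapped each other and stood far below.

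The family thus changed in makeup as well as in amount. LOX made up 6.44% of the sum in iLuc and 43.4% in iEF, while LOXL1 fell from the 80.9% above to 27.8%. WT-EF lay between these, with a sum of 30.7 ± 8.65 CPM per kb, 51.2% of it LOXL1 and 24.8% LOX. In WT-EF replicate 3 LOX was 11.6% of the sum, against 32.6% and 30.4% in replicates 1 and 2. Dividing by coding length in place of transcript length moved the LOXL1 share to 73.8% in iLuc and 16.9% in iEF, and the LOX share to 14.7% in iLuc and 65.7% in iEF. In WT-EF it turned the order of the means, with LOX at 43.97% and LOXL1 at 38.3%, so which of these leads in WT-EF depends on the length used. With coding length every LOX library in iLuc, from 2.31 CPM per coding kb, lay above every LOXL2 library, up to 1.55. In iEF every LOX library, from 212 CPM per coding kb, lay above all those of LOXL1, up to 85.6, and LOXL2, up to 74.2.

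Δ22 and DAF kept the iEF-like makeup. Their sums were 145 ± 37.1 and 98.4 ± 18.9 CPM per kb, led by LOX, LOXL1 and LOXL2. In DAF these 3 overlapped in level, while in Δ22 LOXL2 overlapped both others and every LOX library, from 50.4 CPM per kb, lay above every LOXL1 library, up to 46.9. Divided by coding length, LOX overlapped neither LOXL1 nor LOXL2 in either condition. In DAF it read from 122 CPM per coding kb, against up to 57.6 for LOXL1 and 67.0 for LOXL2. In Δ22 it read from 205, against up to 75.9 for LOXL1 and 108 for LOXL2. In Δ22 LOXL4 stood at 5.32 CPM per kb, above LOXL3 at 1.35 with no overlap between libraries, and in DAF LOXL4 at 1.73 likewise stood above LOXL3 at 0.887. In replicate 3 of both conditions LOXL2 held a larger part, 36.1% in Δ22 and 36.5% in DAF, than in replicate 1 of each, where it held 22.8% and 24.7%.

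**Figure D4:**
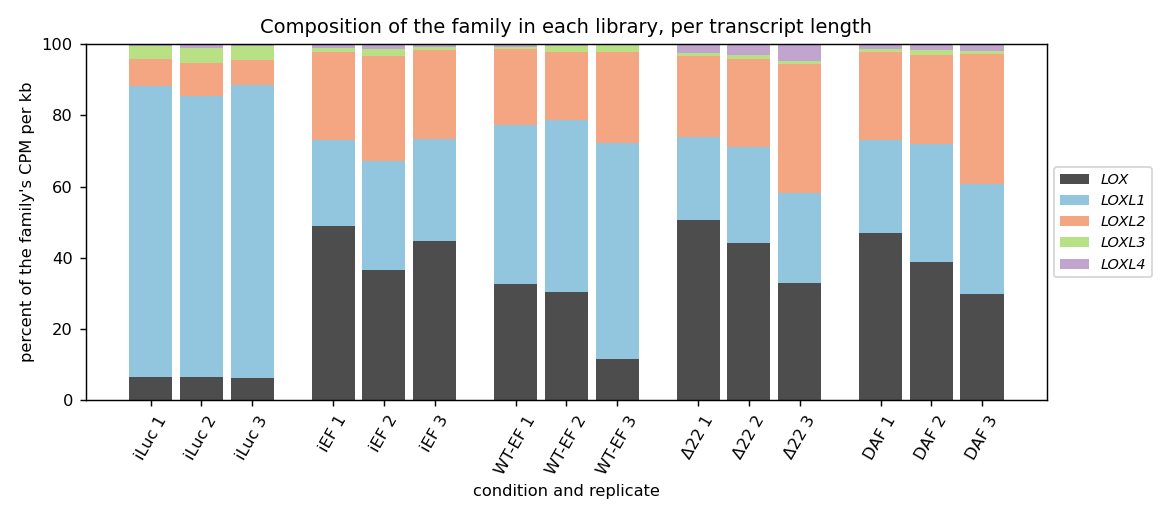
Percent of the family's summed CPM per kilobase of transcript that each member contributes, in each of the 15 libraries, stacked to 100. LOXL1 fills most of each iLuc bar (78.9 to 82.1 percent), while LOX, LOXL1 and LOXL2 share the iEF, Δ22 and DAF bars, and the WT-EF bars lie between these makeups.

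The substrates and partners of the family were read from lists of genes that were chosen with earlier results of these data known. Beside the counts below, 22.1% of all genes were called lower and 19.5% higher in iLuc than in iEF. These shares were 17% and 12.9% for WT-EF, 6.19% and 5% for DAF, and 0.83% and 0.472% for Δ22, each against iEF. The collagens tested include the fibrillar chains that lysyl oxidases cross-link. In iLuc against iEF 9 of 11 collagens were lower and none was higher, with a median log2 fold change of -2.42. COL11A1, a minor fibrillar chain, fell by 6.91 with a standard error of 0.54 (edgeR adjusted p = 1.18e-07). COL1A1 and COL1A2, the chains of type I collagen, fell by 4.56 and 3.00, and COL3A1 fell by 2.91. In WT-EF 9 of 11 were again lower than iEF, among them COL1A1 by 2.53 and COL1A2 by 2.07, while COL3A1 did not pass the test at -0.29 with a standard error of 0.43. In DAF 2 collagens were lower and 1 was higher, and in Δ22 only COL11A1 was lower, by 1.93 with a standard error of 0.39 (edgeR adjusted p = 0.0259).

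The enzymes that modify collagen before cross-linking were lower too. All 13 hydroxylases and chaperones were lower in iLuc than in iEF, with a median log2 fold change of -1.61. P4HA3 and P4HA2, catalytic subunits of prolyl hydroxylases, fell by 4.01 and 3.71. PLOD3, a lysyl hydroxylase, fell by 2.66, and P3H2, a prolyl hydroxylase acting at another position, fell by 2.40. In WT-EF 12 of 13 were lower than iEF, in DAF 2 of 13 and in Δ22 none. All 13 were lower in WT-EF than in DAF, against 16.1% of all genes.

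Of the proteases that trim propeptides and their helpers, 7 of 10 were lower in iLuc than in iEF and 1 was higher. BMP1, which cleaves the LOX propeptide, fell by 3.02 with a standard error of 0.20 (edgeR adjusted p = 2.30e-08). POSTN and FN1, matrix proteins known to bind BMP1 or LOX, fell by 5.58 and 3.52, and ADAMTS3, a procollagen protease, fell by 3.24. In WT-EF 4 of 10 were lower, BMP1 by 1.65 among them, while POSTN had a log2 fold change of -1.44 with a standard error of 0.62 (edgeR adjusted p = 0.0988). The log2 fold change of BMP1 against iEF was 0.24 in Δ22 and 0.00 in DAF, both without a call. Of the 10 genes, 2 were lower and 1 was higher in DAF than in iEF, and 1 was lower in Δ22. TLL1, another protease of the list, averaged 8.30 CPM in iEF, 37.7 in iLuc, 4.82 in WT-EF, 18.8 in Δ22 and 46.1 in DAF. Its libraries read 34.1 to 66.5 CPM in DAF and 6.25 to 12.1 in iEF.

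Of the elastic fibre genes 8 of 11 were lower in iLuc than in iEF and 2 were higher. FBN1, the main fibrillin of microfibrils, fell by 3.34, EFEMP2, a fibulin that binds LOX, fell by 1.89 and LTBP2 fell by 2.65. MFAP4, a microfibril-associated protein, rose by 1.81 with a standard error of 0.21 (edgeR adjusted p = 5.20e-06). WT-EF had 8 of 11 lower and 1 higher than iEF, DAF 1 lower and 1 higher, and Δ22 none of either. ELN, the elastin gene, averaged 38.4 CPM in iEF, 26.6 in iLuc, 13.8 in WT-EF, 42.0 in Δ22 and 84.3 in DAF. Its libraries read 70.1 to 107.6 CPM in DAF and 23.5 to 48.9 in iEF.

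Genes for copper supply, which the enzymes need, did not share a direction. In iLuc against iEF 2 of 6 were higher and 1 was lower, against 19.5% and 22.1% of all genes. The median log2 fold change was -0.05. ATP7A and ATP7B, copper pumps of the secretory pathway, rose by 1.05 and 0.63, while ATOX1, the chaperone that hands copper to them, fell by 1.43. Of 3 other copper amine oxidases, AOC2 and AOC3 did not pass the test, and AOC1 was called higher on 2, 7 and 2 counts in iLuc against 0 in every iEF library. The lists were described by counts alone and were not tested as sets.

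**Figure D5:**
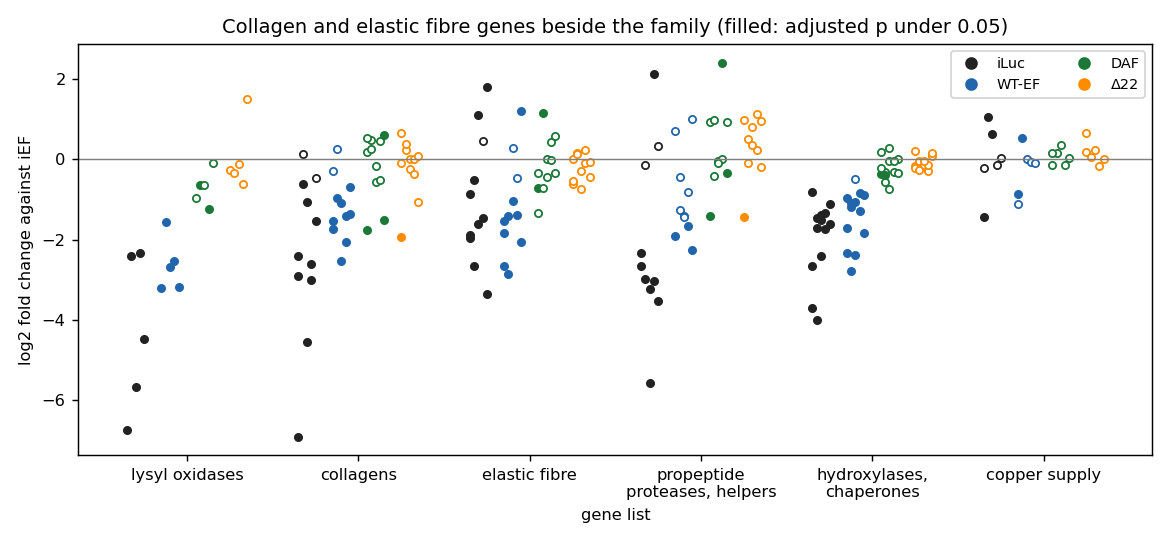
Log2 fold change against iEF of each gene of the lysyl oxidase family and of 5 lists of substrates, partners and copper supply genes, for iLuc, WT-EF, DAF and Δ22, with filled points for an adjusted p under 0.05. Most filled points of iLuc and WT-EF lie below 0 in the first 5 groups, DAF and Δ22 points are mostly open and near 0, and the copper supply genes lie on both sides.

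Across the 15 libraries, the 3 genes among 12935 candidates whose log2 CPM was most like that of each member were found by Pearson correlation. These values are descriptions, since libraries of 5 conditions are not independent points and share their depth and scaling. The nearest to LOX were AXL, a receptor tyrosine kinase, with r = 0.997, NT5E, an ecto-nucleotidase, with 0.996 and NDRG1 with 0.995. With the condition means removed these correlations were 0.959, 0.968 and 0.942. They lean on the WT-EF libraries, where LOX had an SD of 1.21 in log2 CPM, against 0.22 to 0.37 in the other conditions. The nearest to LOXL2 was PLAU, the urokinase-type plasminogen activator, with 0.995, followed by GALNT1 with 0.994 and PHLDB2 with 0.993.

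The nearest to LOXL1 were ARSJ with r = 0.990, NUAK1 with 0.989 and FKBP10, a prolyl isomerase that folds collagen, with 0.988. The nearest to LOXL4 were GFPT2 with 0.991, NMNAT2 with 0.984 and SLC20A1 with 0.983. LOXL3 had the least close neighbours, SIX4 with 0.964, COL18A1 with 0.957 and DOK1 with 0.952. Between members, with condition means removed, LOXL1 and LOXL2 deviated together across libraries with r = 0.855 and LOXL2 and LOXL4 with 0.834, while LOX and LOXL3 gave -0.388. LOXL2 spread most in Δ22 and DAF, with SDs of 0.69 and 0.56 in log2 CPM, and replicate 3 was its highest library in both.

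DOK1 overlaps LOXL3 on the opposite strand, and each member overlaps another annotated gene. The libraries were made with a kit that keeps strand, but the strand setting of the counting was not given in the sources used here, so reads of overlapping genes may not be fully apart. Each neighbour differed less between iLuc and iEF than the member it overlaps. On the log2 scale SRFBP1, which overlaps LOX, was at -0.54, LOXL1-AS1 at -1.01, and ENTPD4, which overlaps LOXL2, at -0.10 without a call. LOXL2-AS1, antisense to LOXL2, was at -4.23 with a standard error of 0.32 (edgeR adjusted p = 8.10e-08), at a level of 5.32 CPM in iEF against 160.1 CPM for LOXL2. HTRA2 and DOK1, both overlapping LOXL3, were at -0.48 and -0.97, and the noncoding ENSG00000230928 in LOXL4 was at -2.08 with 0.357 CPM in iEF.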

How the data were processed

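RNA-seq libraries of A673 cells were analysed, 3 per condition (DAF, Δ22, WT-EF, iEF and iLuc), with condition and replicate number taken from the sample labels. Reads were 150-bp paired ends, aligned to hg19 with STAR (2.5.1b in the submitters' processing notes) and counted per gene by the authors with htseq-count (intersection-strict). The deposited count values are whole numbers without normalization. A second deposited table holds values of another unit, counts that the authors adjusted with ComBat for each set of replicates, and was used for 1 alternative only. A deposited table of the authors' fold changes and p-values was not used, nor were 3 columns of other samples.

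In R 4.3.3, edgeR 4.0.16 was run on the counts as deposited (TMM, genes averaging at least 1 count per library, 28793 of 57820, 1 quasi-likelihood fit of all 15 libraries by condition, blocked on replicate number, since the study adjusted its replicate sets for batch). Benjamini-Hochberg adjusted p-values under 0.05 over all genes tested were called, in 7 comparisons. Deviations from condition means correlated between libraries of the same number with a median r of 0.147 over 30 pairs, 19 of them over 0.1, and of different numbers with -0.0797 over 60 pairs. Not every pair passed 0.1, so the pairing rests on the study's methods, and fits without the block are given where a call changed. Replicates differed by more than counting noise, the mean chi-square of a pair being 12.9 to 83.2 for genes with at least 20 counts in a pair, and none was counted as a duplicate.

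Level correlations used log2 CPM with a prior count of 2. Lengths are the longest transcript and the longest coding sequence of each gene in GENCODE models on GRCh37. Named list genes are the up to 4 per list with the largest change in iLuc against iEF among those called and averaging at least 50 counts, and the named similar genes the 3 nearest per member. TLL1, ELN, AOC1, AOC2, AOC3 and the cell type markers were named outside that rule. Alternatives were DESeq2 1.42.0 size factors and test, other count filters, no block, limma 3.58.1 on the ComBat values (pseudocount 0.5 on the CPM scale), fits on the 6 libraries compared, and leaving libraries out. Scripts were tested on simulated data. The members and lists were chosen with earlier results of these data known.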

Additional observations from a re-analysis of the deposited data

How the results depend on the processing

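For iLuc and WT-EF against iEF and for WT-EF against DAF, all 25 alternative settings called all 5 members in the same direction. Over the 7 comparisons, 815 of 875 alternative log2 fold changes of members kept their direction and call, 20 lost the call, 28 gained it and 12 turned sign, each of these 12 without a call on either side and in fits that left libraries out. Over those fits LOX ran from -0.44 to 0.068 and LOXL2 from -0.49 to 0.13 in Δ22 against iEF, LOXL4 from -0.37 to 0.22 in DAF against iEF, and LOXL3 from -0.46 to 0.16 in WT-EF against iLuc. The cause was not tested.

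Members called in Δ22 against iEF were 0 of 5, but 1 with the DESeq2 test, without a count filter, on the ComBat values and with only the 6 libraries compared, where LOXL4 was the member called, and 0 to 2 with libraries left out. All genes called there were 375, but 1078 with DESeq2, 1514 without a filter, 175 without the replicate block, 595 on the ComBat values and 0 to 961 with libraries left out. The 0 arose in edgeR without replicate 2 of all conditions, where 2421 genes had an unadjusted p under 0.05, and the 961 without WT-EF replicate 3. In DAF against iEF 2 members were called, but 4 without a filter, 4 with the 6 libraries compared, 1 without the block and 0 to 4 with libraries left out. All genes called in DAF against iEF were 3223 of 28793, but 3936 of 44588 without a filter and 3810 of 28397 with the 6 libraries. They were 2379 of 28793 without the block and ranged from 1068 to 4077 with libraries left out. In DAF against Δ22 1 member was called, but 3 without a filter, 0 with a minimum of 10 counts, 0 without the block, 5 with the 6 libraries compared and 0 to 2 with libraries left out. In the edgeR fits with a minimum of 10 counts or without the block, where this count was 0, 2 members had an unadjusted p under 0.05. So did 2403 of 17653 genes with that minimum and 2408 of 28793 without the block. All genes called in DAF against Δ22 were 382, but 777 with DESeq2, 1214 without a filter, 177 without the block, 2744 with the 6 libraries and 84 to 741 with libraries left out. All genes called with libraries left out ranged from 5621 to 8682 in WT-EF against iEF, from 1831 to 6840 in WT-EF against iLuc and from 5245 to 8214 in WT-EF against DAF, and with the 6 libraries WT-EF against iLuc had 3710. The block changed no other call of a member than those of LOXL1 in DAF against iEF and LOXL4 in DAF against Δ22.

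On the ComBat values, with a pseudocount of 0.5 on the CPM scale, log2 differences of scarce members were smaller, -4.04 for LOX and -2.30 for LOXL4 in iLuc against iEF, and 37.7% of called genes were lower there against 53.1% in the edgeR fit. In WT-EF against iEF this share was 35.0% against 56.9%, in DAF against iEF 39.4% against 55.3%, in WT-EF against DAF 40.6% against 56.4% and in Δ22 against iEF 45.0% against 63.7%. In DAF against Δ22 the share of called genes that were lower was 28.5%, but 39.6% with the DESeq2 test, 45.4% without a filter, 48.6% with the 6 libraries, 16.9% without the block and as low as 9.77% with libraries left out (without DAF replicate 2). In Δ22 against iEF it was 48.2% without a filter, and with libraries left out, where genes were called, it ran from 51.3% without replicate 1 of all conditions to 80.2% without iEF replicate 3. Depth limits LOXL3 and LOXL4 most, with 6 to 58 counts per iLuc library.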
